A study of Mus musculus with 4 samples.

Results

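The family of miR-148 and miR-152 comprises the mature miRNAs of 3 mouse precursors, miR-148a, miR-148b and miR-152. All 6 rows of the deposited miRNA table that carry these names, both arms of each precursor, were taken as members, out of 1167 rows in all. Small RNA had been sequenced from the main olfactory epithelium, the neuron-bearing sheet of the nose, in 4 libraries of male C57BL/6 mice aged 3 months. 2 libraries were AC3-/-, from mice without adenylyl cyclase 3, which turns odour receptor activation into cAMP in olfactory neurons, and 2 were wild type (WT). How the AC3 allele was made, and whether libraries of the same genotype came from different mice, is not in the labels. Any p-value therefore reflects the spread among libraries, possibly a technical one. In whole tissue, fewer cells of a type and less RNA per cell cannot be told apart.

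A miRNA precursor is a hairpin from which Dicer cuts a short duplex. One strand, the guide, is kept in an Argonaute protein and pairs with messenger RNAs mainly through its seed, and the other, the passenger, is mostly degraded. In mammals the guides of this family are best known for repressing the DNA methyltransferase DNMT1, and miR-148a also for repressing the LDL receptor in liver.

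The mature sequences show why the 3p arms form a family. They are given from RefSeq (GRCm38.p6), 5′ to 3′, with the seed (bases 2 to 8) in capitals. All 6 members were matched by name.
mmu-miR-148a-3p: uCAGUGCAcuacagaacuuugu
mmu-miR-148b-3p: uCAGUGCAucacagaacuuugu
mmu-miR-152-3p: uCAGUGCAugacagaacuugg
mmu-miR-148a-5p: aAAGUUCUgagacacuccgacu
mmu-miR-148b-5p: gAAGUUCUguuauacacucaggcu
mmu-miR-152-5p: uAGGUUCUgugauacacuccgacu
The 3p arms share 1 seed, and no other mature miRNA listed in that RefSeq table carries it. With positions counted from the 5′ end, miR-148b-3p differs from miR-148a-3p by C9U and U10C, and miR-152-3p differs from miR-148b-3p by C10G and U20G. The first 8 bases are the same in all 3. The 5p arms fall into 2 seeds, 1 shared by miR-148a-5p and miR-148b-5p and another in miR-152-5p. The seed AGUGCAA, carried by miR-130a-3p, miR-130b-3p and miR-301a-3p among 7 mature miRNAs of that RefSeq table, overlaps the 3p seed with an offset of 1 base and is not the same seed.

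The precursors lie on 3 chromosomes and are shown with the mature arms in capitals, the 5p arm first, to place the arms compared here.
Mir148a: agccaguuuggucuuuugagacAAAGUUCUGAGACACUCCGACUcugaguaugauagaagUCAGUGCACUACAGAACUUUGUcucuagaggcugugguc
Mir148b: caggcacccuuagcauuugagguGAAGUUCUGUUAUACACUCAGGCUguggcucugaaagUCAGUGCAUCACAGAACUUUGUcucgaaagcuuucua
Mir152: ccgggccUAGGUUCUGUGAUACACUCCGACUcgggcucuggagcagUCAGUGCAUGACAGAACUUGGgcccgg
Mir148a lies at chr6:51269812-51269910 on the minus strand (GRCm38), outside genes of the GENCODE M21 annotation, with the protein-coding gene Nfe2l3 the nearest at 162760 bases. Mir148b lies at chr15:103285125-103285221 on the plus strand, in an intron of Copz1, and Mir152 at chr11:96850393-96850465 on the plus strand, in an intron of Copz2. Copz1 and Copz2 are paralogs that encode zeta subunits of the COPI vesicle coat. RNAfold gave minimum free energies of -41.0 kcal/mol for the Mir148a hairpin, -30.9 kcal/mol for Mir148b and -43.5 kcal/mol for Mir152, with 19, 17 and 19 bases of the 3p arm paired.

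The unit throughout is the normalised read count, a read count divided by the authors' size factor for its library. The deposited table gives its mean per genotype, and values of single libraries were worked back from those means, since each mean is a sum of whole reads of 2 libraries with different size factors. This gave 1 solution for 1125 rows in AC3-/- and 1134 in WT. The libraries of a genotype are called a and b, and the letters carry no replicate number. miR-148a-5p, miR-148b-3p, miR-148b-5p and miR-152-5p were recovered in all 4 libraries, miR-152-3p in the WT libraries only, and miR-148a-3p in none.

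The guide of miR-148a dominated the family and, in AC3-/-, was the most abundant row of the whole table, at 17.2% of the total. In the authors' deposited table miR-148a-3p had a mean of 1501741 normalised reads in AC3-/-, where it ranked 1 of 1167, and 1301717 in WT, where it ranked 3. It made up 97.3% of the family's 3p reads in AC3-/- and 96.1% in WT. Next came miR-152-3p, averaging 34736 in AC3-/- and 42402 in WT, and then miR-148b-3p, averaging 6857 in AC3-/- and 10305 in WT. Ligation and PCR favour some sequences, so these orders are of read counts and not of molecules.

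Together the 3p arms took 17.7% of the AC3-/- total and 11.0% of the WT total. Their summed means were 1543335 in AC3-/- and 1354424 in WT, 1.14-fold higher in AC3-/- on the authors' scale. The larger gap in shares comes with a smaller table total in AC3-/- (8739148) than in WT (12320877). Dividing by these totals moves every log2 ratio up by 0.50. Several very abundant rows had lower means in AC3-/-. miR-183-5p averaged 322736 in AC3-/- and 1304447 in WT, and miR-182-5p 386391 in AC3-/- and 1130689 in WT. miR-200b-3p and miR-200a-3p were also lower, whereas miR-21a-5p was higher. The rows above miR-148a-3p in WT were miR-200b-3p and miR-183-5p. The rise in share and rank thus also holds falls in other rows.

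The 3p arms did not lie on the same side of 0. The authors' deposited table gives a log2 fold change of AC3-/- over WT, shrunken toward 0, of 0.18 for miR-148a-3p (p = 0.611), -0.52 for miR-148b-3p (p = 0.101) and -0.25 for miR-152-3p (p = 0.455). Without shrinkage, the log2 ratio of the deposited means was -0.29 for miR-152-3p and -0.59 for miR-148b-3p. On shares of the table total these ratios became 0.21 for miR-152-3p and -0.09 for miR-148b-3p. The ratio of miR-148a-3p to miR-148b-3p is unchanged when all means of a genotype are divided by 1 total. It still depends on how the libraries of a genotype are scaled against each other. From the deposited means it was 219.0 in AC3-/- and 126.3 in WT. The ratio of miR-148a-3p to miR-152-3p was 43.2 in AC3-/- and 30.7 in WT.

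All 3 passenger arms had log2 fold changes above 0 by the authors' deposited table, namely 0.30 for miR-148a-5p (p = 0.389), 0.22 for miR-148b-5p (p = 0.495) and 0.47 for miR-152-5p (p = 0.102). None of the 6 members passed an adjusted p of 0.05 there, with adjusted p = 0.944 for miR-148a-3p and 0.940 for the other 5. Of all miRNAs listed, 0.0857% passed it. Without adjustment none was under 0.05 either, against 3.51% of the table. The median log2 fold change of all 1167 rows was -0.01.

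**Figure D1:**
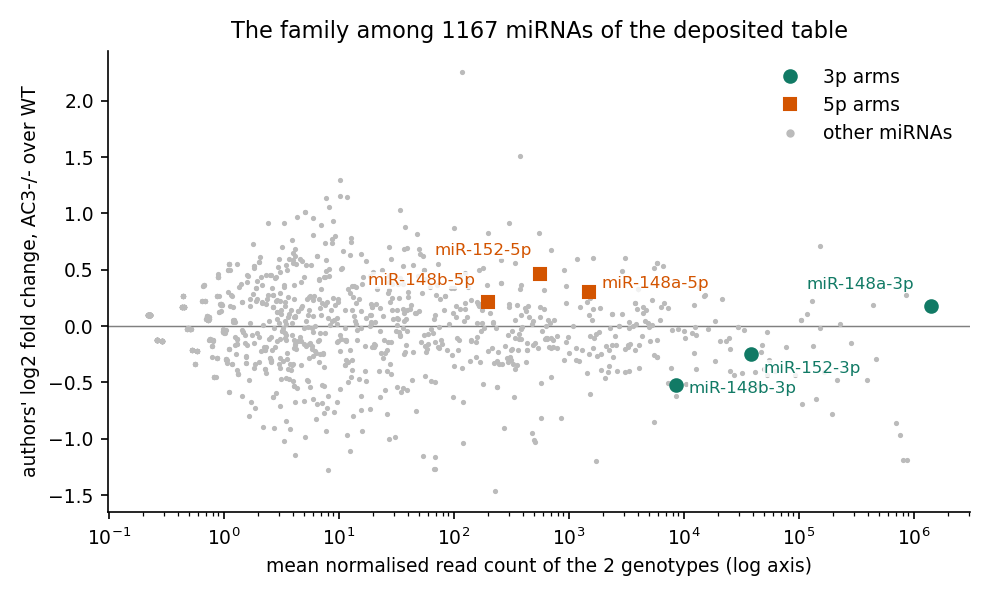
Each point is a miRNA of the authors' deposited table, with its mean normalised read count over the genotypes on a log axis against log2 fold change (AC3-/- over WT, by the authors). The 3 passenger (5p) arms lie above 0 between 0.22 and 0.47, while the guide (3p) arms spread from -0.52 for miR-148b-3p to 0.18 for miR-148a-3p.

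miR-148b-3p, the guide from the Copz1 intron, had lower values in both AC3-/- libraries. It had 7966 and 5748 normalised reads in AC3-/- libraries a and b, against 10151 and 10459 in WT libraries a and b (9144, 6315, 9553 and 8944 reads in that order). Both AC3-/- libraries lay below both WT libraries, and the gap between the groups was wider than that between the WT libraries and about as wide as that between the AC3-/- libraries. The AC3-/- mean was 0.665 times the WT mean. A limma fit to log2(normalised value + 1) over 449 miRNAs put the log2 difference at -0.61 ± 0.25 (SE) and ranked it 20 of 449 by p. It did not pass the threshold, with adjusted p = 0.932.

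Its passenger miR-148b-5p lay on the other side. It had 219.5 and 208.4 normalised reads in AC3-/- libraries a and b, against 201.9 and 159.0 in WT libraries a and b (252, 229, 190 and 136 reads). The groups did not overlap, but AC3-/- library b and WT library a were only 6.56 normalised reads apart, less than the spread within either genotype. The log2 difference by limma was 0.25 ± 0.33 (SE, adjusted p = 0.932), and without WT library b it was 0.08.

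miR-152-5p, the passenger from the Copz2 intron, was the most clearly separated of the 5p arms. It had 612.4 and 710.9 normalised reads in AC3-/- libraries a and b, against 460.1 and 468.9 in WT libraries a and b (703, 781, 433 and 401 reads). Both AC3-/- libraries were above both WT libraries, which were close to each other, and the AC3-/- mean was 1.42-fold higher. The log2 difference by limma was 0.51 ± 0.32 (SE, adjusted p = 0.932).

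Its guide miR-152-3p had 47555 and 37249 normalised reads in WT libraries a and b (44754 and 31853 reads). For AC3-/- the deposited mean left 3 possible pairs for libraries a and b, 5322 with 64151, 29313 with 40159, and 49391 with 20082. In each of these the genotypes overlapped.

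miR-148a-5p had 1455 and 1899.7 normalised reads in AC3-/- libraries a and b, against 1552 and 1074 in WT libraries a and b (1670, 2087, 1461 and 918 reads). The groups overlapped, with WT library a above AC3-/- library a and WT library b the lowest. The log2 difference by limma was 0.36 ± 0.35 (SE, adjusted p = 0.932), and 0.10 without WT library b. For its guide miR-148a-3p the number of possible pairs was 8204 in AC3-/- and 4449 in WT, so no spread between libraries can be given. The means stand for 3299631 to 3447731 reads in both AC3-/- libraries together and 2226279 to 2450114 in both WT libraries.

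**Figure D2:**
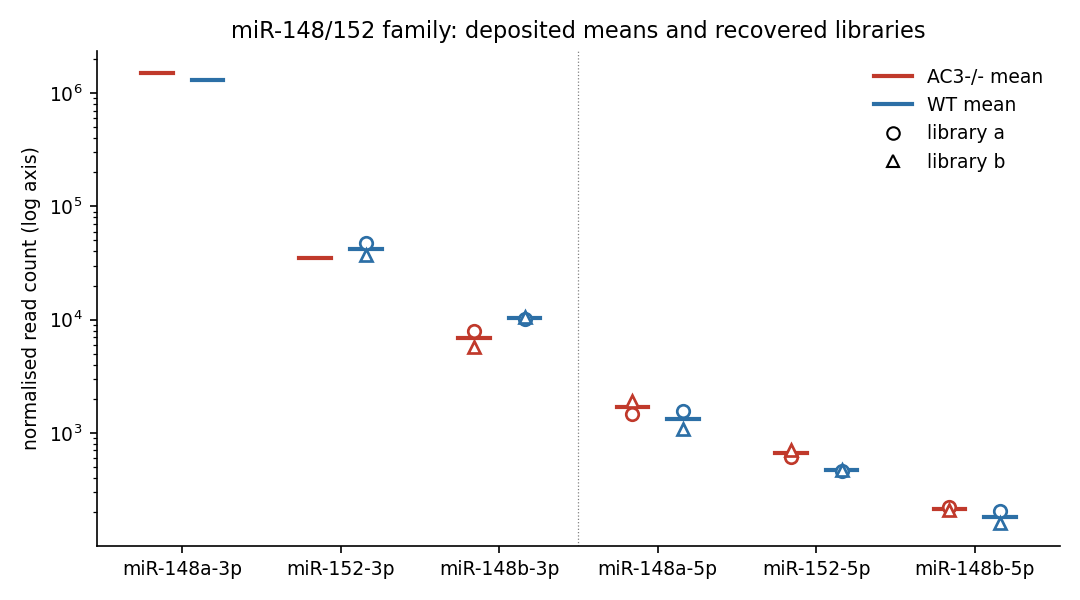
Normalised read counts of the 6 family members on a log axis, AC3-/- in red and WT in blue, with bars for the deposited means and open symbols for recovered libraries a and b. miR-148b-3p is lower in both AC3-/- libraries (7966 and 5748) than in both WT libraries (10151 and 10459), miR-152-5p is higher in both, and no library values are shown for miR-148a-3p or for miR-152-3p in AC3-/-.

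Of the 4 members with values in all libraries, 1 lay below WT with no overlap and 2 lay above it. Over the 449 miRNAs tested, 16.9% lay below and 16.7% above with no overlap, so such a separation is common in these libraries. With limma 0% of the 449 passed an adjusted p of 0.05 and 3.56% (16 miRNAs) had an unadjusted p under 0.05, none of them a family member.

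The WT libraries differed from each other more than the AC3-/- libraries did. Over the same 449 miRNAs 116 differed by 2-fold or more between the WT libraries and 26 between the AC3-/- libraries. Defining markers of the tissue and of other cells it can hold were present. The sensory-organ cluster is abundant in sensory neurons, and all 6 rows lay below 0 by the authors' deposited table (median log2 fold change -0.89). Only 3 of its 6 rows, the far scarcer 3p arms, had values in all 4 libraries. These summed to 659.9 to 1374 normalised reads in AC3-/- and 1318 to 6309 in WT. The means of all 6 rows summed to 818741 in AC3-/- and 2716673 in WT. The multiciliated-cell list summed to 13869 to 26257 in AC3-/- and 5976 to 30648 in WT over 8 of its 9 rows, with 9 of 9 above 0 and a median log2 fold change of 0.05. The row left out was its most abundant, and the means of all 9 summed to 250289 in AC3-/- and 244253 in WT. Of its markers, miR-449c-3p was listed at 0 in WT and averaged only 0.455 in AC3-/-, too few reads for its direction to be read. The leukocyte list summed to 14262 to 17852 in AC3-/- and 5235 to 16845 in WT over 8 of 8 rows, with 7 of 8 above 0 and a median of 0.32. The mesenchyme list summed to 7827 to 9155 in AC3-/- and 8897 to 9915 in WT over 3 of 6 rows, with 5 of 6 below 0 and a median of -0.20. The rows left out were its most abundant, and the means of all 6 summed to 115040 in AC3-/- and 146514 in WT. No row of these 4 lists passed the adjusted p of 0.05. Before adjustment, 3 of the 6 sensory-organ rows had a p under 0.05 by the authors' deposited table, all lower in AC3-/-. That compares with 3.51% of the table, and no row of the other marker lists had such a p. By these sums over recovered rows only, WT library b was the highest for the sensory-organ cluster and the lowest for the multiciliated and leukocyte lists. WT library b was also the lowest library for miR-148a-5p and miR-148b-5p. It was the highest for miR-148b-3p and for the ratio of the miR-148b arms given below. The part of these cell types in the family's values was not tested. The difference of miR-148b-3p was -0.58 without WT library b and that of miR-152-5p was 0.52, near their values with all libraries.

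**Figure D3:**
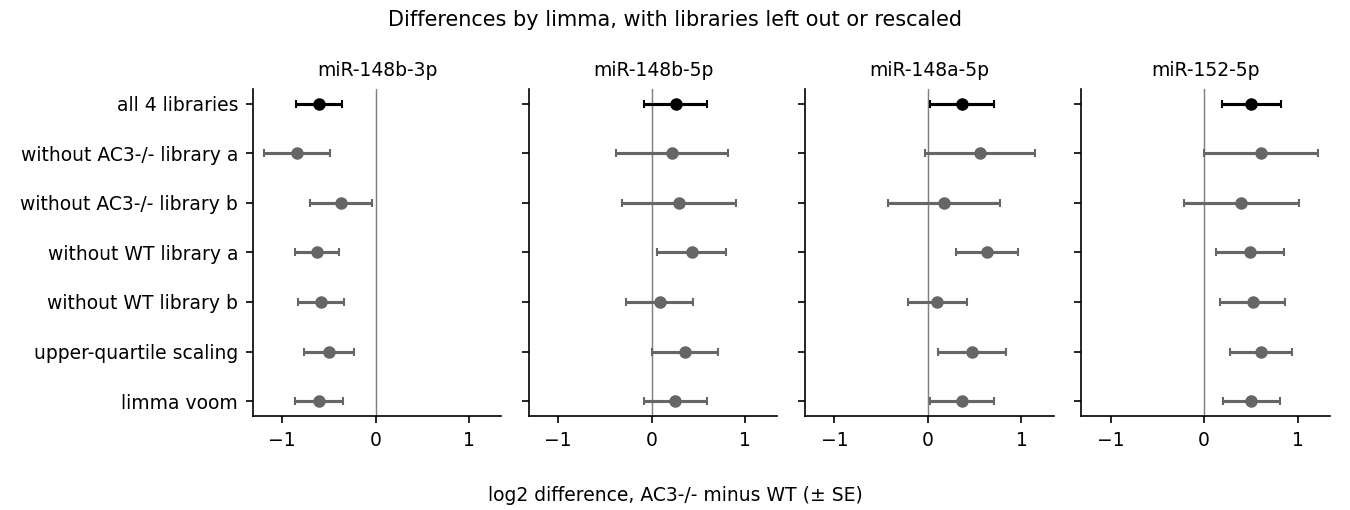
log2 differences of AC3-/- minus WT by limma, with bars of 1 standard error, for the 4 members with values in all libraries, using all 4 libraries, leaving out each in turn, or with another scaling or model. miR-148b-3p stays below 0, from -0.84 to -0.37 with a library left out, and the differences of miR-148a-5p and miR-148b-5p shrink to 0.10 and 0.08 without WT library b.

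Within a library, size factors and totals cancel in the ratio of a guide to its passenger. Among the family this within-library ratio is known in both genotypes for miR-148b, and the other ratios are of genotype means, in which the weight of each library still depends on its size factor. All 3 family precursors had a lower 3p to 5p ratio in AC3-/- when taken from the deposited means. It was 32.0 in AC3-/- and 57.1 in WT for miR-148b, 52.5 in AC3-/- and 91.3 in WT for miR-152, and 895.4 in AC3-/- and 991.4 in WT for miR-148a. The log2 changes were -0.83, -0.80 and -0.15.

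These were set against all 143 precursors of the table with both arms listed and a mean of at least 10 for the rarer arm. There 62.9% had a lower guide to passenger ratio in AC3-/-, with a median log2 change of -0.11 and quartiles of -0.34 and 0.30. Counted from the lowest change, miR-148b ranked 7 of 143, miR-152 ranked 9 and miR-148a ranked 66. The ratio itself was high for miR-148a, which ranked 10 of 143 in AC3-/- and 11 in WT, while miR-152 ranked 43 in AC3-/- and 36 in WT, and miR-148b ranked 52 in AC3-/- and 43 in WT. The median ratio over all 143 was 16.5 in AC3-/- and 13.9 in WT.

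For miR-148b the ratio could be followed in every library. It was 36.3 and 27.6 in AC3-/- libraries a and b, against 50.3 and 65.8 in WT libraries a and b. Both AC3-/- libraries lay below both WT libraries, as did 18.4% of the 114 precursors with all 4 values, while 20.2% lay above. The passenger took 2.68% of the reads of both arms in AC3-/- library a (95% Wilson interval 2.37% to 3.03%) and 3.50% in library b (3.08% to 3.97%). In WT it took 1.95% in library a (1.69% to 2.24%) and 1.50% in library b (1.27% to 1.77%). These intervals cover counting error only. Those of the genotypes did not overlap, but neither did those of the 2 AC3-/- libraries, so such a gap also arises within a genotype.

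The mean log2 ratio of miR-148b was 4.98 ± 0.28 in AC3-/- and 5.85 ± 0.27 in WT (SD, n = 2 libraries each), a change of -0.86, for which a two-sided exact permutation test gave p = 0.333, the smallest value that 2 against 2 libraries allow. WT library b had the highest ratio, and without it the change was -0.67. A limma fit over the log2 ratios of all 114 precursors, added after the values were seen, gave the same change with a standard error of 0.31. It ranked 6 of 114 by p and was among the 7.89% with an unadjusted p under 0.05. Its adjusted p was 0.282 by limma, and 0% of the precursors passed. Without WT library a, where the remaining WT library is taken to vary as the AC3-/- libraries do, the adjusted p was 0.0159 by limma, and with any other library left out it was between 0.242 and 0.969.

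miR-148b was 1 of 2 precursors among these 114 in which the guide lay below WT and the passenger above it with no overlap in either arm. The other was miR-485, both arms of which were scarce, with means over the genotypes of 11.4 for the guide and 10.7 for the passenger. miR-380 had the opposite arrangement. The pattern and these names were chosen after the values were seen, so the count is a description only. Over the 449 miRNAs tested, 16.9% lay below and 16.7% above WT with no overlap. The genotypes were only 6.56 normalised reads apart for miR-148b-5p.

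For miR-152 the ratio was 103.4 and 79.4 in WT libraries a and b. The 3 possible pairs for AC3-/- libraries a and b gave ratios of 8.69 and 90.2, 47.9 and 56.5, or 80.6 and 28.2. The genotypes were separated in the pair 47.9 and 56.5 and overlapped in the others. The 3 pairs need not be equally likely. The AC3-/- libraries lie closest to each other in the separated pair, and only 26 of 449 miRNAs differed by 2-fold or more between them. Whether the libraries of miR-152 separate is not settled.

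**Figure D4:**
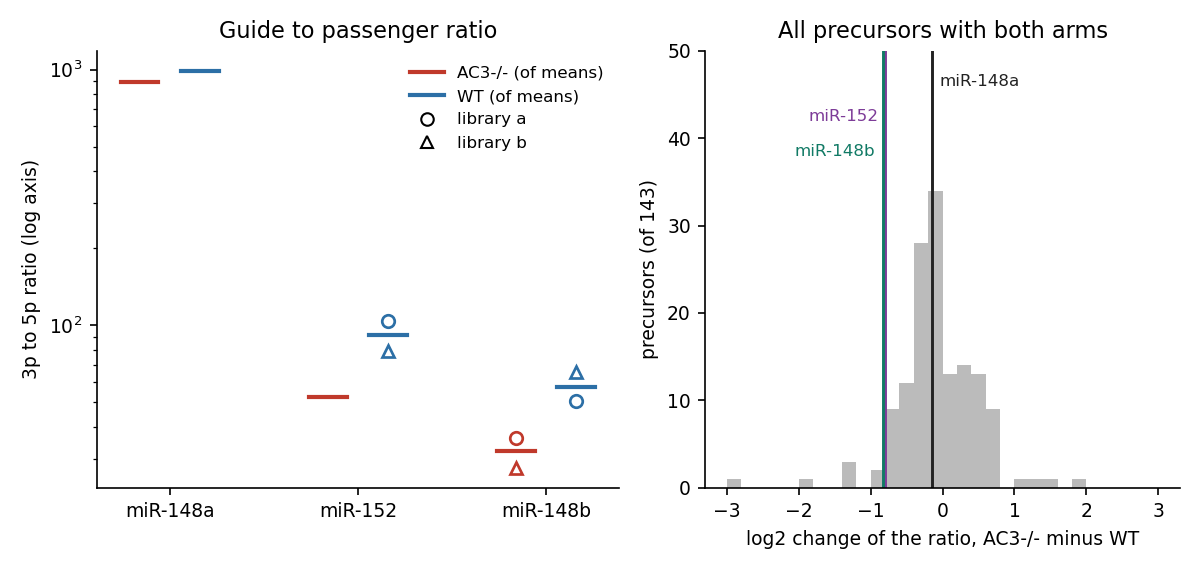
On the left, the 3p to 5p ratio of each family precursor on a log axis, AC3-/- in red and WT in blue, with bars for ratios of the deposited means and open symbols for libraries. On the right, the log2 change of the guide to passenger ratio over 143 precursors, where miR-148b (-0.83) and miR-152 (-0.80) lie in the lower tail and miR-148a (-0.15) near the middle.

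By profile over the 4 libraries, the miRNAs most like miR-148b-3p among 258 others with a mean of at least 100 in either genotype were miR-122-5p, miR-122b-3p and miR-1a-3p. Likeness was the Euclidean distance between centred log2 profiles, 0.19 for the first pair and 0.27 for miR-1a-3p. miR-122-5p, the main miRNA of liver, had 221.3 and 152.9 normalised reads in the AC3-/- libraries and 261.4 and 320.4 in the WT libraries. miR-122b-3p had the same 4 values, so these rows count the same reads. miR-1a-3p, a miRNA of striated muscle, had 6276 and 4241 in AC3-/-, against 6396 and 6723 in WT. With 4 libraries a close profile is a description only.

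Other miRNAs known for the same kinds of target lay on both sides of 0. The miR-29 guides, which repress the DNA methyltransferases DNMT3A and DNMT3B, had 1 of 3 members above 0 and 0 of 3 past the threshold by the authors' deposited table. The median log2 fold change was -0.17. miR-29a-3p had means of 45312 in AC3-/- and 51437 in WT, and miR-29b-3p 5831 in AC3-/- and 4834 in WT. Of 8 miRNAs known for cholesterol and lipid control, 5 lay above 0 with a median of 0.06, and 0 passed after adjustment. The most abundant was miR-27b-3p, averaging 124723 in AC3-/- and 142627 in WT, followed by miR-27a-3p with 12399 in AC3-/- and 13201 in WT. For 1 of the 8, miR-130b-3p, the authors' deposited table gives a p under 0.05 before adjustment, against 3.51% of the table. It was named for that p, after its values were seen, and had 60.1 and 67.4 normalised reads in the AC3-/- libraries and 36.1 and 28.1 in the WT libraries. Its seed is the offset one given above.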

How the data were processed

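The 4 libraries were grouped by title. Per the labels' protocols, adaptors were ligated to small RNA and libraries were amplified by PCR and selected by length on a gel. Bowtie, DESeq 1.8.3 and the GRCm38 build are named in the submitters' processing notes. The counter and miRBase release are not stated there or in the labels. The authors' deposited columns of abundance hold a signal, the mean normalised read count per genotype. The authors also deposited a log2 fold change, a p-value and an adjusted p-value. 0 per-sample columns were left unused.

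Whole reads were recovered by solving each mean for 2 whole numbers (96.4% of AC3-/- and 97.2% of WT rows had 1 solution). Size factors were 1.148 and 1.099 in AC3-/- and 0.941 and 0.855 in WT. The means stand for 19201686 to 20063529 reads in AC3-/- and 21071945 to 23190561 in WT. Without molecular identifiers, reads are not independent molecules.

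limma 3.58.1 in R 4.3.3 (intensity trend, Benjamini-Hochberg adjustment) was fitted to log2(normalised value + 1) of 449 miRNAs recovered in 4 libraries with means of at least 10, which understates changes of low miRNAs. The limma fit over arm ratios used a trend on passenger abundance. The recovery of reads and the limma fit to single miRNAs were tested on simulated data, and the fit to arm ratios was not. Alternatives were other pseudocounts, filters, scaling, limma voom and leaving out libraries. Hairpins were folded with RNAfold 2.7.2.

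The members and the lists (partners, lipid regulators and 4 marker lists) were chosen with earlier results of these data known. By rule the text names all members, the 3 closest profiles and up to 2 abundant miRNAs per partner list. miR-130b-3p, miR-449c-3p, miR-485, miR-380 and the miRNAs of the offset seed fall outside it and were named after their values were seen.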

Additional observations from a re-analysis of the deposited data

How the results depend on the processing

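No paired analysis was possible because the recovered libraries carry no replicate number. Over 10 alternatives of the limma fit (pseudocount, filter, scaling, voom, libraries left out), all 40 differences of the 4 members with library values kept their direction and did not pass, with adjusted p between 0.0757 and 0.999. With 1 library left out, the log2 difference ranged from -0.84 to -0.37 for miR-148b-3p, 0.08 to 0.43 for miR-148b-5p, 0.10 to 0.63 for miR-148a-5p and 0.40 to 0.61 for miR-152-5p, and the change of the miR-148b arm ratio from -1.06 to -0.66. The number of miRNAs past the adjusted p by limma was 0 with all libraries and 0 to 63 with 1 left out (63 without WT library a, 2 without WT library b). For arm ratios it was 0, and 0 to 10 with 1 left out (1 without AC3-/- library a, 10 without WT library a, 8 without WT library b). In these fits the pair that remains gives all of the spread. Scaled to the table total, the unshrunken log2 ratio of miR-152-3p reversed from -0.29 to 0.21, as every log2 ratio moves up by 0.50. The authors' table kept 1 miRNA past the threshold with means of at least 10 or 100.

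Depth limits miR-148b-5p most, with 136 to 252 reads per library, and the 3p values of miR-148a and miR-152 could not be fully split into libraries.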
